A study of Mus musculus with 10 samples.

Results

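The genes described here are 10 mouse genes known to be transcribed from the copy inherited from the father and lying outside the large imprinted clusters: Plagl1, Peg3, Usp29, Mest, Nnat, Peg10, Sgce, Zrsr1, Impact and Peg13. They were chosen by this known parental expression, with earlier CBE-KO and WT expression differences of these same libraries already in view. Their differences between CBE-KO and WT are therefore given as a description, without p-values, and no count over them serves as evidence. The count tables held 52636 Ensembl gene identifiers, and all 10 symbols matched 1 identifier each. All 10 passed the filter on low counts, Peg13 through its CBE-KO libraries alone.

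At an imprinted locus, DNA methylation laid down in one parent's germ line marks an imprinting control region and silences genes on that parental copy. For the genes treated here the methylated, silent copy is the one from the mother. The zinc finger protein ZFP57 binds the methylated hexamer TGCCGC and recruits TRIM28, which keeps the mark through the wave of demethylation in the early embryo. Such genes are best known for roles in fetal growth, placenta and brain. Gene counts do not tell the parental copies apart, so a level here is the sum of both.

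RNA was sequenced from E14 cells, an embryonic stem cell line from a mouse blastocyst, in 2 WT and 2 CBE-KO libraries. The line was kept on gelatin in serum medium with LIF, the MEK inhibitor PD0325901 and the GSK inhibitor CHIR99021, and both groups were then moved to medium without LIF and inhibitors, with retinoic acid at a labelled 2 µM for 24 h. CBE-KO cells lack a binding element for CTCF, a DNA-binding protein that organises chromatin loops, near the HoxA genes. The study's title concerns contacts between enhancers beside this element and HoxA. The design text calls the replicates biological, but the labels do not say how many CBE-KO clones were used or whether the libraries of a group came from separate cultures, so errors and calls measure the spread between these libraries only. The 6 samples of the Capture-C assay, which reads chromatin contacts, were not used here.

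Libraries held 14108038 to 15632960 counts, and 3 counts, the floor for a gene at 0, corresponded to 0.185 to 0.218 CPM (counts per 1000000, with library sizes adjusted by TMM, a trimmed mean of log ratios). Replicates differed by more than sampling noise (chi-square per degree of freedom 3.40 in WT and 2.70 in CBE-KO). The groups also differed in Y-linked genes: Ddx3y, Eif2s3y, Uty, Kdm5d and Uba1y together had 19 and 12 counts in WT, against 2589 and 2182 in CBE-KO. E14 is a male line, yet both WT libraries had almost no Y-linked counts. Whether the label of the line holds for these libraries was not tested. With both affected, no comparison without them could be made, and the part of this difference in the results below was not tested. The WT and CBE-KO cells may therefore not be subclones that differ by the deleted element alone, and the deletion and any other difference between these cells cannot be told apart in each comparison below. Of 16005 genes tested, 43.1% were called, meaning that the Benjamini-Hochberg adjusted p of the quasi-likelihood test in edgeR was below 0.05, 21.6% as higher in CBE-KO and 21.5% as lower. Calls were thus frequent over the whole table. With library totals in place of TMM scaling, 67.0% of called genes were higher, against 50.2% with TMM, and the median over all tested genes moved from 0.01 to 0.11 on the log2 scale.

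Promoter sequences (RefSeq, GRCm38.p6, 250 bases before to 50 after the start) are shown for the members whose window held the hexamer that ZFP57 binds, and for Peg3, which shares its start region with Usp29. Of the 3 Mest windows, 1 of the 2 with the most CpG dinucleotides is shown. Capitals mark TGCCGC on either strand, the ZFP57 hexamer, which reads GCGGCA when it lies on the opposite strand. Windows were found for 6 of the 10 members, and none was given for Peg10, Sgce, Impact and Peg13.
Plagl1, chr10:13090582-13090881, plus strand: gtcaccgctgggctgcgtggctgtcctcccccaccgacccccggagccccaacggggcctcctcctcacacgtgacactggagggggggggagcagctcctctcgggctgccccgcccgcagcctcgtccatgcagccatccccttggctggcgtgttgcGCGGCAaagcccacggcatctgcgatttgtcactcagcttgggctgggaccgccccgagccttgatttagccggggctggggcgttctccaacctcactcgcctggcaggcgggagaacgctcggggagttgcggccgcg
Nnat, chr2:157559828-157560127, plus strand: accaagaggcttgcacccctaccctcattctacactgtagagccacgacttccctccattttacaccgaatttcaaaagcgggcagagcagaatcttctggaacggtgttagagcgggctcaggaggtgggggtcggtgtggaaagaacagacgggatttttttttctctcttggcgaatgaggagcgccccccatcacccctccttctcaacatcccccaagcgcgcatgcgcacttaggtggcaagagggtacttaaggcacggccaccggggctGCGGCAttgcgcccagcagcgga
Mest, chr6:30737800-30738099, plus strand: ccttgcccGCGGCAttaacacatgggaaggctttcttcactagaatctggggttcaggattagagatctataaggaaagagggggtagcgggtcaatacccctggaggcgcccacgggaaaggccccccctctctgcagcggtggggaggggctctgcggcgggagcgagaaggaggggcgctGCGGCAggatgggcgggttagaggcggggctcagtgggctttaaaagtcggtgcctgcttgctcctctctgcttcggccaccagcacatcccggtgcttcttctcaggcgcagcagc
Peg3, chr7:6730370-6730669, minus strand: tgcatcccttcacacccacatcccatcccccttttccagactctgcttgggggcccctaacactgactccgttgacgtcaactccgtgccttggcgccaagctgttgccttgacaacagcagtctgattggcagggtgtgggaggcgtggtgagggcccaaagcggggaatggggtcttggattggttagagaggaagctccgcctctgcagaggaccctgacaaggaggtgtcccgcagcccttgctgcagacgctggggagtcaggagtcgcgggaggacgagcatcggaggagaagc

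The hexamer occurred 1 time in the Plagl1 window, 1 time in that of Nnat and 2 times in the Mest window shown. It was not in the windows of Peg3, Usp29 and Zrsr1, nor in the window of an upstream Mest start. Of all 32851 RefSeq windows of this length, 11.6% held it at least 1 time and 1.53% at least 2 times. The hexamer itself holds a CpG, and no share over windows of like CpG count was computed. The YY1 motif GCCATNTT, searched on both strands, was in none of the windows used for the members and in 6.05% of all. The windows of Peg3 and Usp29, read from opposite strands, shared 263 bases, and the starts lay 164 bases apart. The Plagl1 window held 26 CpG dinucleotides, more than 83.1% of all windows, whose median was 7. The other windows used for the members held 8 to 17. These matches describe letters in the reference and not binding or methylation, which were not measured.

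Plagl1 (ENSMUSG00000019817; chr10:13090832-13131694, RefSeq GRCm38.p6, as for all gene positions here) encodes a zinc finger transcription factor that restrains the cell cycle. It had 42 and 16 counts in WT, against 1073 and 917 in CBE-KO, or 2.87 and 1.16 CPM against 66.1 and 63.0 CPM. Both CBE-KO libraries were thus far above both WT libraries, with no overlap. Its means were 2.02 ± 1.21 and 64.6 ± 2.19 CPM (SD, n = 2 each), and the log2 fold change was 4.98 ± 0.16 (SE), or 31.5-fold. It ranked 14 of 16005 tested genes, counted from the highest log2 fold change. The WT libraries themselves differed, so that the log2 fold change was 5.78 without WT replicate 1 and 4.48 without WT replicate 2. In bulk RNA, fewer expressing cells and less RNA per cell cannot be told apart.

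Peg13 (ENSMUSG00000106847; chr15:72805602-72810324) is a long noncoding RNA within the span of Trappc9, a gene for a vesicle trafficking protein. It had 6 and 0 counts in WT, against 153 and 138 in CBE-KO, or 0.411 and 0 CPM against 9.43 and 9.48 CPM. It was near the floor in 1 WT library, at 0 in the other, and at closely similar levels in the CBE-KO pair. The ratio of the summed, scaled counts was 44.7, with an exact 95% interval of 20.3 to 123 that covers counting error only. The fitted log2 fold change, 5.43 ± 0.42 (SE), depends on the prior count and on WT replicate 1, the WT library with reads: it was 10.1 without that library and 4.49 without WT replicate 2. Peg13 and Plagl1 were the 2 members with the widest differences between the groups.

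**Figure D1:**
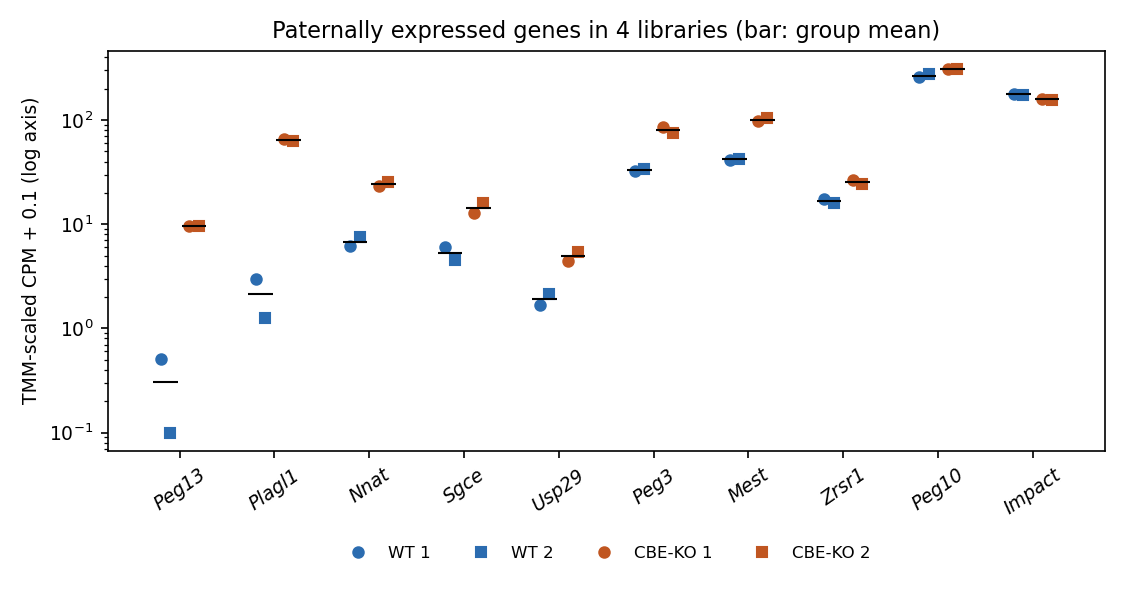
TMM-scaled CPM plus 0.1 on a log axis for the 10 genes, ordered by log2 fold change; each point is 1 library, blue for WT and orange for CBE-KO, and each black bar a group mean. The groups lie farthest apart for Peg13 (means 0.205 and 9.46 CPM) and Plagl1 (2.02 and 64.6 CPM) and closest for Peg10 and Impact; heights are not comparable between genes, since CPM is not per length.

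Peg3 (ENSMUSG00000002265; chr7:6703892-6730462) encodes a large zinc finger protein, and Usp29 (ENSMUSG00000051527; chr7:6730559-6967220) a ubiquitin-specific protease. They are read in opposite directions from the start region shown above, under one imprinting control region, and the gene spans lie 96 bases apart. Peg3 had 32.3 and 33.9 CPM in WT and 85.0 and 75.5 CPM in CBE-KO. Its means were 33.1 ± 1.11 and 80.3 ± 6.67 CPM (SD, n = 2 each), and the log2 fold change was 1.28 ± 0.07 (SE). Usp29 had 23 and 28 counts in WT, against 70 and 78 in CBE-KO, or 1.57 and 2.04 CPM against 4.31 and 5.36 CPM. Its log2 fold change was 1.42 ± 0.27 (SE). Both genes of the pair were higher in both CBE-KO libraries than in either WT library, by 2.43-fold and 2.67-fold.

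The count ratio of Peg3 to Usp29 was 20.5 and 16.6 in WT and 19.7 and 14.1 in CBE-KO. These ratios overlapped between groups. The log2 fold changes differed by -0.14 ± 0.28 (Peg3 minus Usp29, SE), and leaving out 1 library moved this from -0.379 to 0.104, so the counts of Usp29 set the precision. The difference itself was not tested.

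Mest (ENSMUSG00000051855; chr6:30733506-30748466) encodes an enzyme-like protein of the alpha/beta hydrolase fold. Its levels were 41.7 and 42.5 CPM in WT and 98.9 and 104 CPM in CBE-KO. Replicates were close and the groups far apart, with a log2 fold change of 1.27 ± 0.06 (SE), or 2.41-fold, the smallest SE among the members above a log2 fold change of 1. Mest shares 913 bases with Copg2, which encodes a coat protein of transport vesicles. Copg2 rose less, from 57.2 and 58.8 CPM to 80.2 and 77.7 CPM (log2 fold change 0.45 ± 0.06, SE; edgeR adjusted p = 1.40e-05, and 1.75e-09 to 4.39e-05 over 11 alternatives). The count ratio of Mest to Copg2 went from 0.728 and 0.723 to 1.23 and 1.34. Whether the counting used strand is not given in the sources used here. Where gene spans overlap, reads of the partners may therefore not have been told apart, and overlap of exons was not examined. This limit holds for Mest, Nnat, Zrsr1 and Peg13. It also holds for Plagl1, Peg3 and Usp29, whose spans share 5056 bases with Hymai, 865 with Peg3os and 11536 with Zim3.

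Nnat (ENSMUSG00000067786; chr2:157560078-157562525) encodes neuronatin, a small membrane protein of developing neurons and endocrine cells. It had 88 and 102 counts in WT, against 376 and 365 in CBE-KO, or 6.02 and 7.42 CPM against 23.2 and 25.1 CPM. The difference, a log2 fold change of 1.84 ± 0.14 (SE) or 3.59-fold, was the third widest among the members. The whole of Nnat lies within Blcap, a gene for a small conserved membrane protein. Blcap was not higher in CBE-KO, with 35.9 and 36.0 CPM in WT and 29.5 and 32.6 CPM in CBE-KO (log2 fold change -0.21 ± 0.08, SE; edgeR adjusted p = 0.0476). That call for Blcap as lower was lost under 7 of 11 alternatives (adjusted p 0.0325 to 0.354), DESeq2 and library totals among them. The count ratio of Nnat to Blcap went from 0.168 and 0.206 to 0.785 and 0.768.

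Peg10 (ENSMUSG00000092035; chr6:4747306-4760517) derives from a retrotransposon and is needed for the placenta. Sgce (ENSMUSG00000004631; chr6:4674350-4747204) encodes epsilon-sarcoglycan, part of a membrane complex with dystroglycan. The pair shares an imprinting control region, and the gene spans lie 101 bases apart. Peg10 had 259 and 275 CPM in WT and 310 and 310 CPM in CBE-KO, from 3777 and 3781 counts against 5036 and 4504. The groups did not overlap but lay close, and its log2 fold change was 0.22 ± 0.05 (SE), or 1.16-fold. Sgce had 87 and 61 counts in WT, against 208 and 230 in CBE-KO, or 5.96 and 4.44 CPM against 12.8 and 15.8 CPM. Its log2 fold change was 1.45 ± 0.18 (SE), or 2.74-fold.

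The 2 genes of this pair therefore differed in how far they were apart between the groups. The count ratio of Peg10 to Sgce was 43.4 and 62.0 in WT and 24.2 and 19.6 in CBE-KO, with no overlap. The log2 fold changes differed by -1.24 ± 0.18 (Peg10 minus Sgce, SE). Without 1 library this difference lay between -1.512 and -0.999, and under the other scalings, filters and tests between -1.241 and -1.233. The difference itself was not tested.

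**Figure D2:**
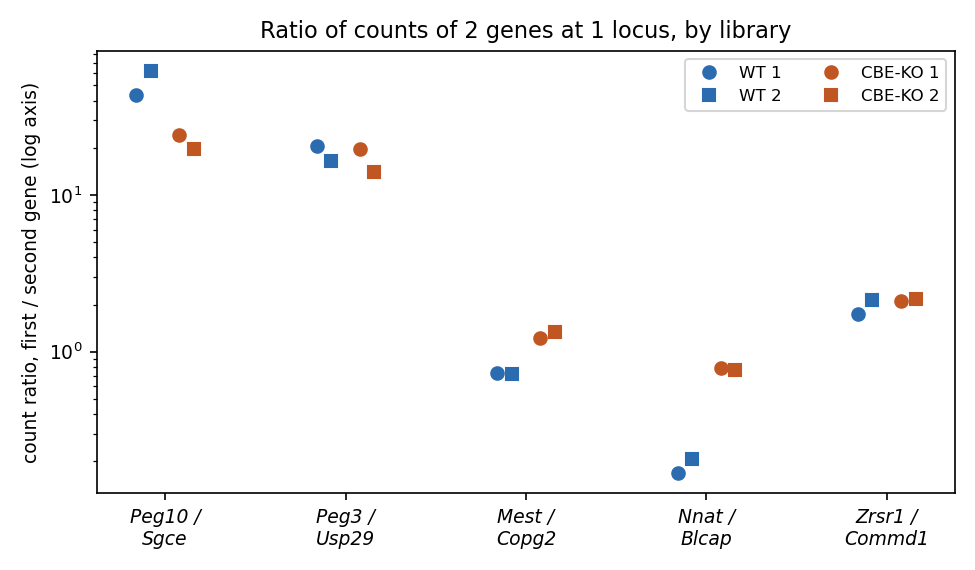
Ratio of raw counts of 2 genes at the same locus, on a log axis, 1 point per library, blue for WT and orange for CBE-KO. Peg10 over Sgce is lower in both CBE-KO libraries (24.2 and 19.6) than in WT (43.4 and 62.0), Mest over Copg2 and Nnat over Blcap are higher, and Peg3 over Usp29 overlaps between groups.

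Zrsr1 (ENSMUSG00000044068; chr11:22972005-22976496) encodes a splicing factor related to U2AF1 and lies whole within Commd1, a gene for a protein of copper metabolism. It is a retrogene copy of Zrsr2, and how reads matching both were treated is not stated, so its level is uncertain to that extent. Zrsr1 had 17.2 and 15.8 CPM in WT and 26.5 and 24.1 CPM in CBE-KO, with no overlap, a log2 fold change of 0.61 ± 0.11 (SE) or 1.53-fold. Commd1 had 9.99 and 7.42 CPM in WT and 12.6 and 11.1 CPM in CBE-KO (log2 fold change 0.44 ± 0.16, SE; edgeR adjusted p = 0.0396), a call lost under 3 of 11 alternatives (adjusted p 0.00212 to 0.309): DESeq2, without WT replicate 2 and without CBE-KO replicate 1. The count ratio of Zrsr1 to Commd1, 1.73 and 2.13 in WT and 2.11 and 2.17 in CBE-KO, overlapped. Of the 4 members that overlap another tested gene, Zrsr1 was the one whose ratio to it overlapped between groups.

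Trappc9, around Peg13, had 32.7 and 34.0 CPM in WT and 29.8 and 27.5 CPM in CBE-KO (log2 fold change -0.22 ± 0.08, SE; edgeR adjusted p = 0.0469). This call was lost under 7 of 11 alternatives (adjusted p 0.0369 to 0.316), which include DESeq2 and library totals. The Peg13 count was 0.0126 and 0 times that of Trappc9 in WT and 0.316 and 0.345 times in CBE-KO.

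Impact (ENSMUSG00000024423; on chromosome 18 from 12954690 to 12992950) encodes an inhibitor of the activation of Gcn2, a kinase that lowers protein synthesis when amino acids run short. It was the member that was lower in CBE-KO, at 180 and 176 CPM in WT and 159 and 157 CPM in CBE-KO. The groups did not overlap, and the log2 fold change was -0.17 ± 0.05 (SE), or 0.888-fold. With library totals it was -0.067, and without CBE-KO replicate 2 it was -0.161, and Impact was not called in either fit. The raw counts, 2634 and 2417 against 2585 and 2283, overlapped. Impact and Peg10 were the 2 members with the smallest differences.

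Counted over the list, 9 of the 10 members were called as higher and 1 as lower, beside 21.6% and 21.5% of all tested genes. A log2 fold change of 1 or more was seen in 7, all higher, beside 6.09% of tested genes called higher by as much. Both CBE-KO libraries lay above both WT libraries for 9 members, beside 36.5% of tested genes. The median log2 fold change was 1.35 for the members and 0.01 for all tested genes. The members were proposed with this comparison in view, and nothing is read from these shares. Of the members, 9 kept their direction and call under each of the 11 alternatives tried, and Impact under 9 of 11.

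**Figure D3:**
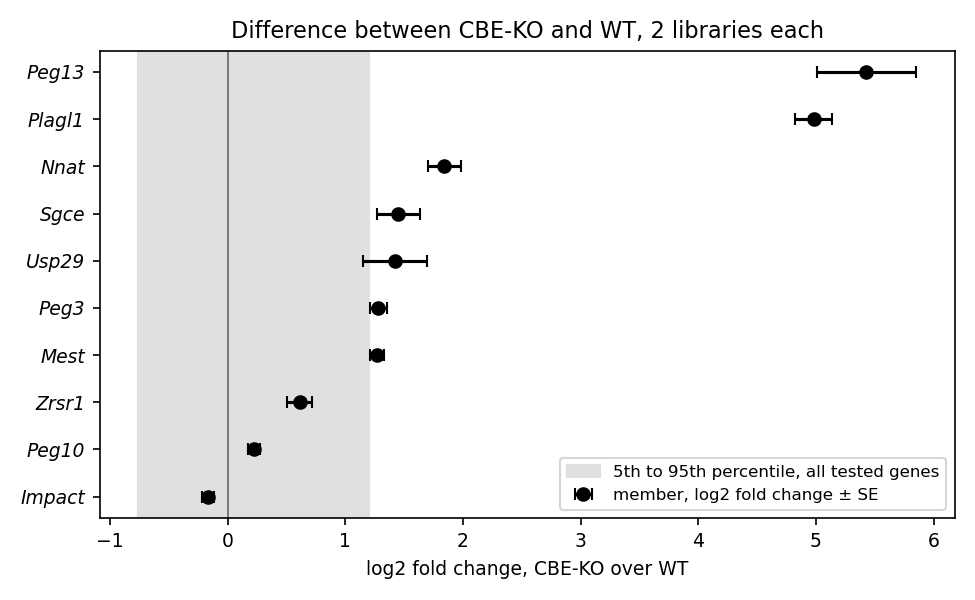
Log2 fold change of CBE-KO over WT for each of the 10 genes with its standard error (edgeR, 2 libraries per group); the grey band spans the 5th to 95th percentile of all 16005 tested genes, -0.76 to 1.20. Peg13 and Plagl1 stand at 5.43 and 4.98, 5 further genes lie between 1.27 and 1.84, and Zrsr1, Peg10 and Impact lie within the band.

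Genes beside the members were compared next. Of a list of 28 host, domain and flanking genes, 21 were tested. Of these, 4 were called higher, 9 lower and 8 not called, beside 21.6% higher and 21.5% lower among all tested genes. Their median log2 fold change was -0.05, beside 0.01 for all genes. With library totals, 6 were called higher and 5 lower, with a median of 0.06 beside 0.11 for all genes. Over all tested genes, library totals called 4770 higher and 2352 lower. The counts in each direction thus moved with the scaling, while the list's median lay slightly below that of all genes under both. Without CBE-KO replicate 1, 8 of these genes were called. Phactr2, beside Plagl1, which encodes a phosphatase and actin regulator, rose from 5.13 and 6.47 CPM to 18.1 and 12.7 CPM (log2 fold change 1.41 ± 0.18, SE; edgeR adjusted p = 8.74e-06, and 2.80e-16 to 1.01e-05 over 11 alternatives). Aurkc, a meiotic kinase gene beside Usp29, fell by 0.51 on the log2 scale (SE 0.05; edgeR adjusted p = 2.63e-07, and 3.40e-18 to 8.18e-07 over 11 alternatives). Near Peg10 and Sgce, the paraoxonase genes Pon2 and Pon3 fell by 1.04 and 0.80 on the log2 scale (SE 0.21 and 0.30). The Pon3 call was lost under 5 of 11 alternatives, DESeq2, library totals and 3 of the 4 fits without 1 library, and that of Pon2 under none.

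Casd1, Ppp1r9a and Zim1, which flank the pairs, were not called, unlike Aurkc. Casd1, on the far side of Sgce, had 12.3 and 13.2 CPM in WT and 15.2 and 14.9 CPM in CBE-KO (0.24 ± 0.13, SE; edgeR adjusted p = 0.143), and was called with library totals (adjusted p 0.0361 to 0.424 over 11 alternatives). Ppp1r9a, a maternally expressed gene beyond Peg10, had 25.8 and 28.1 CPM against 29.1 and 29.1 CPM (0.11 ± 0.09, SE; edgeR adjusted p = 0.324). Zim1, the maternally expressed zinc finger gene next to Peg3, had 17 and 14 counts against 27 and 20 (0.48 ± 0.38, SE; edgeR adjusted p = 0.333). The SE of Zim1 was wider than that of Peg3 (0.07). Ppp1r9a and Zim1 were called under none of the 11 alternatives (adjusted p 0.0564 to 0.781 and 0.233 to 0.709).

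Tested genes without a RefSeq position, such as Zfp264 of the list above (log2 fold change 0.01 ± 0.12, SE), were left out next. Other tested genes within 500 kb of the 8 loci, a distance chosen after the data were seen and with members left out, numbered 65. Their median log2 fold change was 0.01, with 15 called higher (23.1%, beside 21.6% of all tested genes), 13 lower and 37 not called. A rise by a log2 fold change of at least 1 was called for 2 of them, Phactr2 and Vstm2l, the latter 352.5 kb from Nnat (1.02 ± 0.18, SE) and named after its value was seen. The members were proposed with this comparison in view, so nothing is read from their order among neighbours. At the loci of Plagl1, Peg3 and Usp29, Mest, Nnat and Peg13 each member had a higher log2 fold change than each of these neighbours. Sgce also exceeded its 3 tested neighbours, whereas Peg10 (0.22) lay below Casd1 (0.24). Zrsr1 (0.61) lay below Fam161a (0.91 ± 0.16, SE), a ciliary gene named after its value was seen. Impact (-0.17) lay below its 4 tested neighbours, whose median was 0.55. Median log2 fold changes of the members' 7 chromosomes ranged from -0.04 to 0.04.

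**Figure D4:**
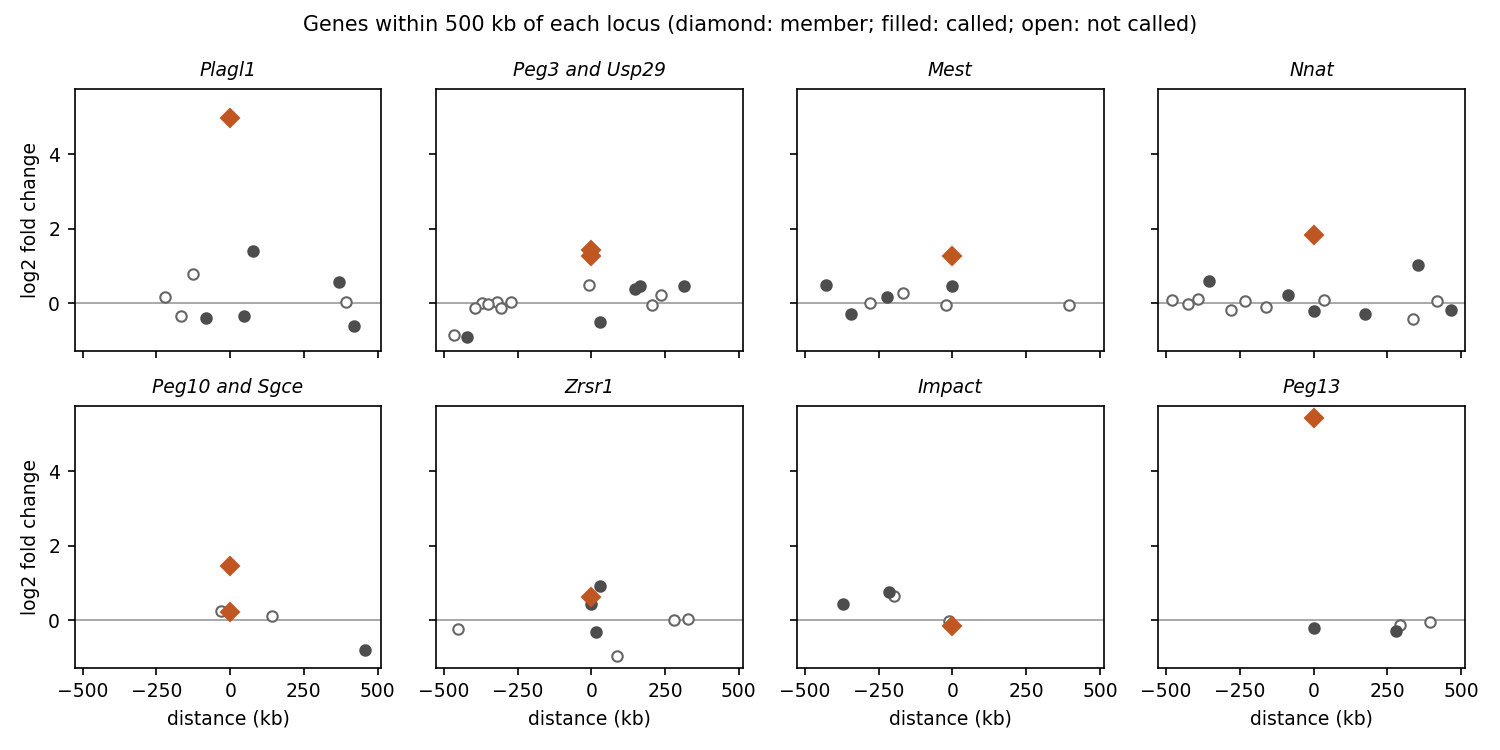
Log2 fold change of CBE-KO over WT (vertical) of tested genes with a RefSeq position within 500 kb of each of the 8 loci. The horizontal axis is distance in kb from the edge of the member's span (0 where genes overlap). Diamonds are members, filled circles called genes and open circles genes not called. Neighbours lie around 0 (median 0.01), with Phactr2 beside Plagl1 the highest at 1.41.

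Other imprinted genes of the same parental class did not share one direction. Of 17 further paternally expressed genes, 12 were tested, 4 called higher, 4 lower and 4 not called, with a median log2 fold change of 0.15. Among all tested genes, 21.6% were called higher and 21.5% lower. Nap1l5, a retrogene for a nucleosome assembly protein relative, rose from 16 and 25 counts to 74 and 43 (1.38 ± 0.32, SE; edgeR adjusted p = 0.00224, and 1.49e-05 to 0.0575 over 11 alternatives), and was not called without CBE-KO replicate 1. Igf2, the fetal growth factor, fell from 16.3 and 13.1 CPM to 0.739 and 1.17 CPM (-3.95 ± 0.24, SE; edgeR adjusted p = 9.47e-10). Sfmbt2, a Polycomb-type gene of the placenta, and Mcts2, a retrogene, fell by 0.89 and 0.88 on the log2 scale (SE 0.09 each). Igf2, Sfmbt2 and Mcts2 kept their calls under all 11 alternatives.

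Among 20 maternally expressed genes, 14 were tested, 4 called higher, 6 lower and 4 not called, with a median of -0.12. Among all tested genes, 21.6% were called higher and 21.5% lower. With upper-quartile scaling 4 of the list were called higher and 4 lower, with library totals 4 and 3, and in DESeq2 3 and 4. Over all 16005 genes these settings called 3834 higher and 3029 lower, 4770 and 2352, and 2047 and 2530. Phlda2, a brake on placental growth, fell from 79.5 and 68.4 CPM to 11.0 and 11.6 CPM (-2.71 ± 0.09, SE; edgeR adjusted p = 6.21e-13). Cdkn1c, an inhibitor of the cell cycle, fell from 41.9 and 38.0 CPM to 13.9 and 13.1 CPM (-1.56 ± 0.10, SE; edgeR adjusted p = 1.05e-09). Mirg, a noncoding RNA of the Dlk1-Dio3 domain, rose from 95 and 88 counts to 357 and 320 (1.77 ± 0.13, SE; edgeR adjusted p = 1.18e-08). Meg3, of the same domain, had 6 and 11 counts against 18 and 28 (1.31 ± 0.47, SE; edgeR adjusted p = 0.0334) and was not called in DESeq2 or without WT replicate 1 or CBE-KO replicate 2 (adjusted p 0.0142 to 0.352 over 11 alternatives).

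Plagl1 is known as a regulator of a network of imprinted growth genes, and 10 non-member genes of that network were compared. Of these, 9 were tested, 4 called higher, 4 lower and 1 not called, beside 21.6% higher and 21.5% lower among all tested genes. The median of the network was 0.01. Igf2 and Cdkn1c, given above, and Gnas, which encodes a G protein subunit (from 26.3 and 22.8 to 17.2 and 16.4 CPM; -0.55 ± 0.11, SE; edgeR adjusted p = 0.000502), fell. Meg3, whose call was lost under 3 of 11 alternatives, had the highest log2 fold change of the network. The other called genes of the network, named after their values were seen, were Ndn (0.51 ± 0.13, SE), Grb10 (0.39 ± 0.08) and Igf2r (0.37 ± 0.05), which rose, and H19 (-0.26 ± 0.07), which fell.

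A list of 17 factors linked to imprints held enzymes that write, keep or erase DNA methylation and DNA-binding proteins such as Ctcf, Yy1 and Zfp42. Of these, 16 were tested, 1 called higher, 8 lower and 7 not called, beside 21.6% higher and 21.5% lower among all tested genes. Their median log2 fold change was -0.16, beside 0.01. With median-of-ratios scaling 1 was called higher and 9 lower, and with library totals 2 and 7. Over all 16005 genes these scalings called 3326 higher and 3570 lower, and 4770 and 2352. The one called higher with TMM scaling was Smchd1, a chromatin protein of X inactivation and imprinting, at a log2 fold change of 0.31. Dnmt3l, the cofactor of the de novo methyltransferases, fell from 528 and 534 CPM to 166 and 159 CPM (-1.71 ± 0.05, SE; edgeR adjusted p = 3.85e-14). Dnmt3b fell from 186 and 192 CPM to 86.0 and 86.8 CPM and Dnmt3a from 482 and 508 CPM to 334 and 334 CPM (-1.13 and -0.57, SE 0.05 each). Trim28, the partner of ZFP57, fell by 0.44 on the log2 scale (SE 0.04). The calls of these 4 genes held under all 11 alternatives. Zfp57 itself, at 10243 and 9326 counts in WT, against 10590 and 9471 in CBE-KO, was not called (-0.08 ± 0.04, SE, edgeR adjusted p = 0.156). Dnmt1 (-0.11 ± 0.05, SE, edgeR adjusted p = 0.0563) and Ctcf (-0.05 ± 0.05, SE, edgeR adjusted p = 0.472) were not called either. Dnmt1 had 418 and 420 CPM in WT and 391 and 385 CPM in CBE-KO. The groups did not overlap for Zfp57 and Dnmt1, and overlapped for Ctcf.

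**Figure D5:**
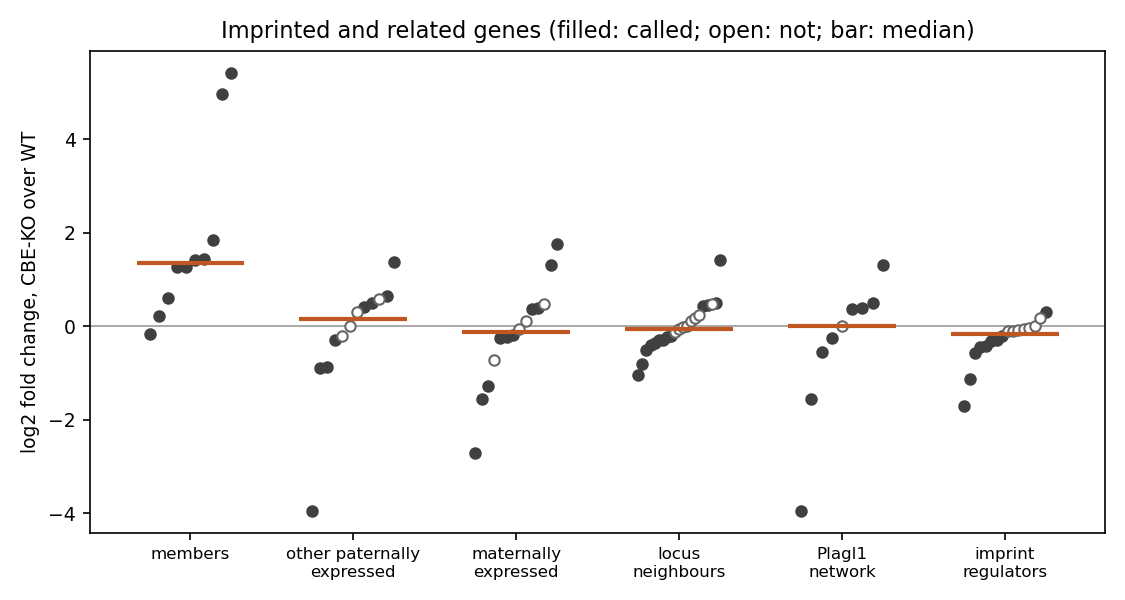
Log2 fold change of CBE-KO over WT for each tested gene of 6 lists (filled, called; open, not called; orange bar, median of the list). The members' median is 1.35, and the other lists' medians lie between -0.16 and 0.15; some genes stand in more than 1 list.

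Markers of cell states were compared as well, where 21.6% of all tested genes were called higher and 21.5% lower. The 10 markers of pluripotent cells summed to 5050 and 4860 CPM in WT and 4020 and 4110 CPM in CBE-KO, with 5 of 9 tested called lower and 1 higher, and Pou5f1 and Nanog were counted in all 4 libraries, at 11859 to 15841 and 11137 to 14352 counts. Of 6 endoderm markers 3 were called higher (sum 73.7 to 76.0 CPM in WT and 86.1 to 88.6 CPM in CBE-KO). Of 6 neuroectoderm markers 5 were tested, with 3 called higher and 1, Tubb3, called lower. Their sum was 91.0 to 101 CPM in WT and 73.0 to 74.0 CPM in CBE-KO. Tubb3 alone had 74.3 and 64.5 CPM in WT and 40.4 and 41.2 CPM in CBE-KO, so the lower sum does not describe the 3 markers called higher. Of 5 mesoderm markers 4 were tested and 1 was called higher (4.51 to 4.59 CPM and 5.98 to 6.19 CPM). The 8 fibroblast markers summed to 22.9 and 26.8 CPM in WT and 27.2 and 29.7 CPM in CBE-KO, 1 of 3 tested was called higher, and Dcn, Lum and Postn had no count in any library. None of these lists was at 0 in 1 group, and the part of cell states in the members' differences was not tested.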

How the data were processed

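The authors deposited 1 table per RNA-seq library with whole-number read counts per Ensembl gene identifier, not normalized, as the values show. The submitters' processing notes list HISAT2 2.1.0, HTSeq 0.9.1, DESeq2 1.18.1 and Bowtie2 2.3.1 and the build mm10, without roles. Use of strand, the annotation release and the treatment of reads matching several genes are not given in the sources used here. Gene symbols came from the supplied gene name table and matched 52403 of 52636 identifiers. Positions and promoter windows came from RefSeq tables of GRCm38.p6, matched by symbol, and all 10 members had a position. The tables hold gene spans and no exon lengths, so levels were not compared between genes.

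The filterByExpr function of edgeR (at least 0.679 CPM in 2 libraries) left 16005 genes. Counts were scaled by TMM and tested with edgeR 4.0.16 (R 4.3.3; glmQLFit, glmQLFTest) with the group as the only term; p-values were two-sided and adjusted by Benjamini-Hochberg over all tested genes at a threshold of 0.05. The SE is the absolute log2 fold change divided by the square root of F. Pair SEs combine the genes' SEs as independent. The script was checked on simulated counts. Alternatives were DESeq2 1.42.0 on the same genes, median-of-ratios and upper-quartile scaling, library totals, no filter, a filter on a mean of 1 CPM, the replicate number as a block, a threshold of 0.01, a log2 fold change of 1 or more in size, and each library left out in turn. The first 7 and the 4 fits without a library are the 11 alternatives given for single genes.

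The members and gene lists were chosen with earlier results of these data known. Named genes outside the members were the 4 called genes without overlap that had the largest absolute log2 fold change in each list, and the host and partner genes Blcap, Commd1, Trappc9, Copg2, Zim1, Casd1 and Ppp1r9a. H19, Ndn, Grb10, Igf2r, Smchd1, Zfp57, Dnmt1, Vstm2l, Fam161a, Zfp264 and Tubb3 were named after their values were seen.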

Additional observations from a re-analysis of the deposited data

How the results depend on the processing

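Of 7 fits with another test, scaling, filter or covariate, 6 called all 10 members, and library totals called 9, without Impact. Leaving out 1 library gave 9 to 10 called members. Those fits leave 1 library in a group, which is assumed to vary like the others. The number of all genes called, 6895, was 4577 in DESeq2 and 1383 with a log2 fold change of 1 or more in size, and 5492 to 6420 without 1 library. Called locus neighbours, 13, numbered 7 in DESeq2, 7 at a threshold of 0.01 and 2 with the fold limit, and 8 to 12 without 1 library. With the fold limit, 2 other paternally expressed genes, 5 maternally expressed genes, 3 Plagl1 network genes and 2 regulators were called. Stricter limits lower counts by construction, and the cause of the DESeq2 and left-out-library shifts was not tested. Same-numbered libraries had a correlation of deviations of 0.0366, and the labels do not say that they were prepared together. A replicate block in the fit called 7027 genes and all 10 members. The counts of Peg13 and Usp29 limit what depth can show.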
